A study of Mus musculus with 8 samples.

Results

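Epidermis of mouse back skin that had received DMBA and then repeated TPA, harvested on day 52, was compared with acetone-treated epidermis by RNA-seq. The comparison holds 4 libraries, 2 titled DMBA/TPA and 2 titled as their acetone control (Control DMBA TPA), chosen by those titles out of 8 libraries in the study. All mice were FVB, labelled WT, and 7 to 8 weeks old. The DMBA/TPA animals received DMBA a single time, 100 µl at 1 mg/ml, and afterwards TPA at 0.1 mg/ml 2 times per week. The control animals received acetone, the solvent of both agents, and neither DMBA nor TPA, so the effects of the 2 agents cannot be told apart. The labels do not give the day on which acetone-treated skin was harvested. The other 4 libraries are 2 of DMBA alone, harvested on day 10, and 2 of their own acetone group (Control DMBA), which is used below as a further reference and is called the other acetone group. Epidermis was peeled from dermis after overnight Dispase digestion, and whole epidermis was sequenced after removal of ribosomal RNA, so each value is an average over all cells that stayed in the sheet. Whether libraries of the same group were made from different animals is not in the labels, and the p-values below therefore measure the spread between libraries, which may be technical.

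The epidermis renews itself from a dividing basal layer, whose daughter cells pass through spinous and granular layers and end as cornified envelopes, protein shells cross-linked by transglutaminases and coated with lipids. DMBA is a polycyclic hydrocarbon that the cell's own cytochrome P450 enzymes turn into DNA-damaging metabolites, and in mouse skin it is known for mutating Hras. TPA is a phorbol ester that stands in for the lipid messenger diacylglycerol, activates protein kinase C and, applied again and again, keeps the skin thickened and inflamed, the state in which papillomas grow out.

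Gene counts were 28592432 and 35266002 in acetone 1 and 2 and 26300400 and 28042551 in DMBA/TPA 1 and 2. Of 55487 genes, 19450 had enough counts to be tested with edgeR's quasi-likelihood test, and 40.7% of them were called at an adjusted p under 0.05, 22.4% higher and 18.3% lower. Leaving out acetone 1, acetone 2 or DMBA/TPA 2 lowered the number called from 7917 to 3704, 4369 or 4829, and leaving out DMBA/TPA 1 raised it to 8901. The shares over all genes are the background against which each count of called genes is to be read. List members are counted among those that passed the low-count filter. A member that passed only through the group in which it was high had to differ, so the counts describe the lists and no more. Against the other acetone group 11.3% were called higher and 8.1% lower. The median log2 fold change of all genes was -0.0029, and scaling by total counts in place of TMM moved it to -0.1196 and the split of calls from 4356 higher and 3561 lower to 3675 higher and 4489 lower. The keratinocyte markers Krt5, Krt14, Krt1 and Krt10 summed to 25540 and 20840 CPM in acetone 1 and 2 and 32010 and 43350 CPM in DMBA/TPA 1 and 2. Reads that did not align made up 3.80% and 4.83% in acetone and 9.82% and 16.4% in DMBA/TPA, and their part in the results was not tested. Levels are in CPM, counts per 1000000 gene counts with TMM scaling, fold changes are on the log2 scale with ± for the standard error (SE), and every adjusted p is edgeR's with Benjamini-Hochberg adjustment over all genes tested.

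Keratins of thickened and wounded epidermis were among the most raised genes. Of 16 genes listed for this state, 14 rose and 1 fell, with a median log2 fold change of 5.79, and their summed level went from 2075 and 2641 CPM to 13710 and 32540 CPM. Krt6b (ENSMUSG00000023041, mm10 chromosome 15, 101676023 to 101680287), a type II keratin of wounded epidermis, was at 2.44 and 5.11 CPM in acetone 1 and 2 and at 2693 and 7990 CPM in DMBA/TPA 1 and 2, a log2 fold change of 10.44 ± 0.92 (adjusted p = 0.000429). Krt16 (ENSMUSG00000053797, chromosome 11, 100246091 to 100248902), a type I partner of the Krt6 keratins, went from 19.9 and 27.0 to 2882 and 9234 CPM (8.01 ± 0.62, adjusted p = 0.000322). Krt6a, the neighbouring copy of Krt6b, went from 99.2 and 233 to 3099 and 9201 CPM (5.21 ± 0.62, adjusted p = 0.000969). For all of these the DMBA/TPA libraries lay far above every acetone library and DMBA/TPA 2 was the higher of the pair by about 3 times. The copies are similar enough that the split of reads between Krt6a and Krt6b is uncertain. In the other acetone group Krt6b was already at 19.4 and 62.3, Krt16 at 142 and 152 and Krt6a at 738 and 657 CPM, and the log2 fold changes against that group were 7.03, 5.36 and 3.14 in the same order (adjusted p = 0.00183, 0.00134 and 0.00952). Krt17, a keratin of hair follicles and injured skin, rose by 0.82 ± 0.21 against its own acetone group (adjusted p = 0.0166) and had -0.29 (adjusted p = 0.351) against the other, whose libraries were at 2238 and 2002 CPM. The stress keratin list had 11 raised genes without acetone 1 and 12 without acetone 2. The Krt17 call was also lost without acetone 1 and with all 4 acetone libraries as control.

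**Figure D1:**
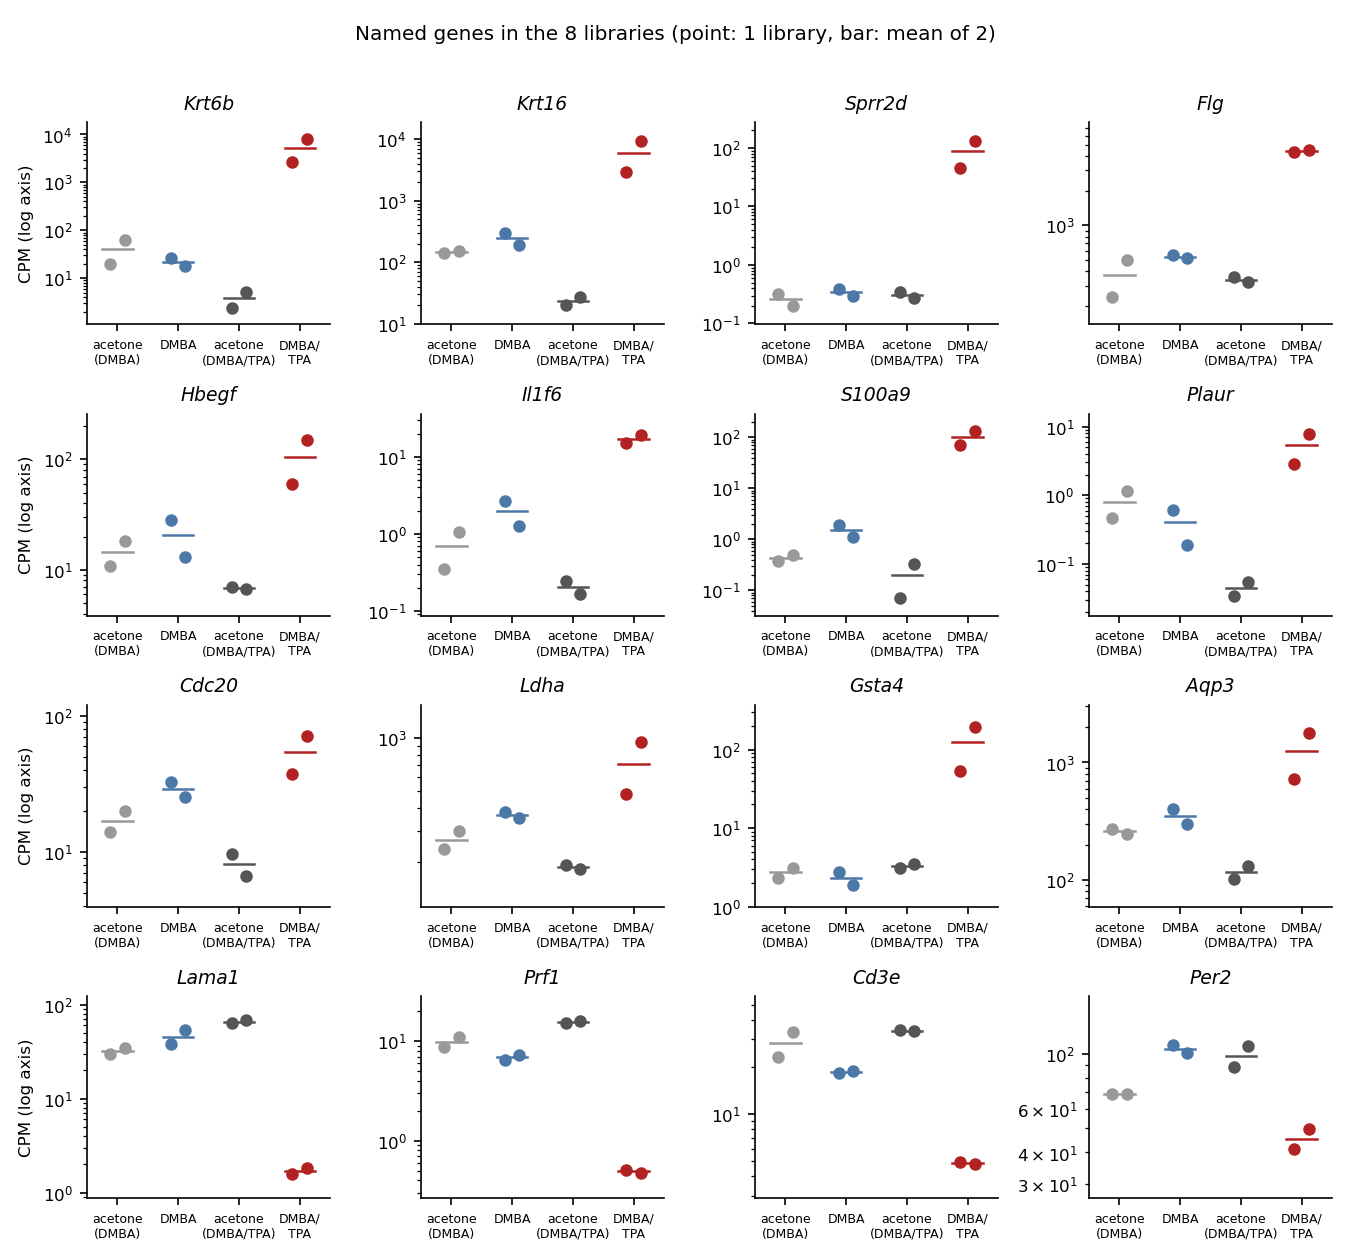
Levels of 16 genes in all 8 libraries, in CPM on log axes, with a point per library and a bar at the mean of the 2 libraries of a group. In the 12 upper panels both DMBA/TPA points lie above all 6 others, Krt6b at 2693 and 7990 CPM for example, and in the 4 lower panels both lie below, Cd3e at 4.96 and 4.78 CPM for example.

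Basal and spinous keratins of undisturbed epidermis did not move as a block. Of 16 basal genes 7 rose and 4 fell (median 0.30), and of 14 spinous genes 5 rose and 2 fell (median 0.15). Krt14, a basal keratin, went from 3468 and 2935 to 9930 and 20870 CPM (2.27 ± 0.33, adjusted p = 0.00204), while Krt5, its usual partner, was at 7117 and 6204 CPM in acetone and 6013 and 8059 CPM in DMBA/TPA and was not called (0.08 ± 0.17, adjusted p = 0.731). Krt15, a basal keratin also typical of the follicle bulge, fell from 2946 and 3546 to 1111 and 847 CPM (-1.73 ± 0.29, adjusted p = 0.00317). Dst, a hemidesmosomal plakin, fell from 3666 and 3394 to 1859 and 1462 CPM and Col17a1, a hemidesmosomal collagen, from 3147 and 2793 to 1843 and 1877 CPM. Among spinous genes Krt10 was at 11200 and 8947 CPM in acetone and 9764 and 8220 CPM in DMBA/TPA and was not called (-0.16 ± 0.24, adjusted p = 0.605). Krt1, its partner, had 0.94 ± 0.23 (adjusted p = 0.0147), a call lost without acetone 2. Krt77, a suprabasal keratin, went from 10880 and 9575 to 6517 and 3783 CPM (-0.99 ± 0.29, adjusted p = 0.0275) and was not called against the other acetone group (-0.63, adjusted p = 0.153) or without acetone 1, acetone 2 or DMBA/TPA 2. Dsg1a and Dsg1b, neighbouring desmoglein genes of similar sequence, went opposite ways, with -1.01 ± 0.21 and 1.28 ± 0.21 (adjusted p = 0.00702 and 0.0029). The Dsg1a call was lost against the other acetone group and without acetone 1, and the split of reads between the 2 copies is uncertain. Without acetone 2 the number of spinous genes that rose was 3, and without acetone 1 none fell.

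Genes of the granular layer and cornified envelope rose more widely. Flg (ENSMUSG00000102439, chromosome 3, 93273523 to 93293686), the filaggrin precursor that bundles keratin, was at 354 and 320.1 CPM in acetone and 4341 and 4501 CPM in DMBA/TPA, with the latter 2 libraries nearly equal and far above the former (3.71 ± 0.31, adjusted p = 0.000377). Asprv1 and Casp14, proteases that process filaggrin, went from 328 and 309 to 1549 and 1758 CPM and from 70.4 and 55.2 to 632 and 627 CPM (2.38 ± 0.14 and 3.33 ± 0.23, adjusted p = 0.000166 and 0.000249). Rptn, a filaggrin-like protein, had 5.87 ± 0.59. Ivl, an early envelope protein, rose from 89.6 and 73.9 to 182 and 200.2 CPM (1.23 ± 0.15, adjusted p = 0.00112). Lor, the main protein of the mature envelope, was at 488 and 437 CPM in acetone and 732 and 597 CPM in DMBA/TPA and was not called (0.52 ± 0.20, adjusted p = 0.0656), although it was against the other acetone group (1.56, adjusted p = 0.00328), where it was at 193 and 257 CPM. Of the 15 genes of this list 9 rose and 1 fell, and of 18 cornification enzymes 16 rose and none fell (medians 1.27 and 2.54).

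The small proline-rich genes, whose products are cross-linked into envelopes of stressed epithelia, rose by large folds. Of 16 listed members 15 passed the low-count filter, and those 15 rose (median 9.44, or 7.64 if the 8 genes with no acetone count are placed at their lower bound), and 14 rose and 1 fell against the other acetone group. Sprr1b was at 0.906 and 0.385 CPM in acetone and 208 and 663 CPM in DMBA/TPA (9.44 ± 0.89, adjusted p = 0.000483). Sprr2d went from 0.349 and 0.275 to 46.2 and 132 CPM (8.16 ± 0.61, adjusted p = 0.000316). Sprr2b, Sprr2f and Sprr2i had no count in either acetone library and stood at 8.30 and 30.6, 8.14 and 23.3 and 13.8 and 50.7 CPM in DMBA/TPA, which is at least 421.8-fold, at least 342-fold and at least 701-fold higher when the acetone group is set at a floor of 3 counts. The reads of these similar copies may be split differently from their true source. In the late cornified envelope family 19 of 21 members rose and none fell (median 3.53). Lce1g went from 0.418 and 0.357 to 33.6 and 47.7 CPM (6.71 ± 0.31, adjusted p = 7.53e-05) and Lce1f from 6.38 and 7.78 to 95.9 and 98.2 CPM (3.77 ± 0.19, adjusted p = 0.000104), with little difference between the 2 DMBA/TPA libraries. Lce3d and Lce3f, of a subgroup known from wounded skin, had no count in acetone and were at least 474-fold and at least 293-fold higher. Lce3c, of the same subgroup, was at 0.140 and 0.137 CPM in acetone and at 15.5 and 67.4 CPM in DMBA/TPA 1 and 2, a wider spread than that of Lce1f.

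Proteases, cross-linking enzymes and lipid enzymes of the barrier were among the genes that rose. Klk13 (ENSMUSG00000054046, chromosome 7, 43712567 to 43727534) and Klk6, kallikrein proteases of the desquamation cascade, went from 1.19 and 1.29 to 197 and 455 CPM and from 2.51 and 2.61 to 202 and 365 CPM (8.03 ± 0.54 and 6.79 ± 0.58, adjusted p = 0.00022 and 0.000403). Tgm1 and Tgm3, the cross-linking transglutaminases, rose by 2.04 ± 0.20 and 6.04 ± 0.73 (adjusted p = 0.000593 and 0.00104), and Tgm3 stood at 183 and 746 CPM in DMBA/TPA 1 and 2. Padi1, a peptidylarginine deiminase, had 1 count in the acetone libraries and 24.7 and 16.5 CPM in DMBA/TPA, a ratio of 1340 [95% interval 239.9 to 52960], and its call was lost with the 4 acetone libraries together. Of 19 barrier lipid genes 12 rose and 1 fell. Degs2, a ceramide desaturase and hydroxylase, had 1 count in acetone and 25.8 and 59.8 CPM in DMBA/TPA, a ratio of 2788 [95% interval 499.8 to 110200]. Alox12b, the lipoxygenase of acylceramide processing, rose from 69.8 and 61.3 to 147 and 220.5 CPM (1.49 ± 0.21, adjusted p = 0.00171), and Sptlc3, a serine palmitoyltransferase subunit, fell from 103 and 99.8 to 46.9 and 34.8 CPM (-1.31 ± 0.14, adjusted p = 0.000736) and had -0.46 without a call against the other acetone group (adjusted p = 0.0535). Among 24 junction genes 8 rose and 3 fell (median 0.15), with 5 and 5 under scaling by total counts and 3 and 2 against the other acetone group. The connexin genes Gjb2 and Gjb6 went from 6.83 and 6.79 to 488 and 1152 CPM and from 2.72 and 3.19 to 80.5 and 181 CPM (6.91 ± 0.82 and 5.46 ± 0.42, adjusted p = 0.000969 and 0.000322), and Dsc2, a desmocollin, rose by 4.09 ± 0.47. Of 23 transcription factors of epidermal differentiation 12 rose and 3 fell, led by the ETS factors Elf3, from 0.384 and 0.495 to 13.5 and 23.5 CPM, and Ehf, from 15.4 and 12.7 to 105 and 153 CPM (5.37 ± 0.44 and 3.20 ± 0.23, adjusted p = 0.000355 and 0.000293). Without acetone 1, 4 junction genes rose and 1 fell and 7 transcription factor genes rose and 1 fell, without acetone 2, 5 junction genes rose, and without DMBA/TPA 1, 5 fell.

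Genes that act above and below the EGF receptor moved in both directions. Of 16 ligand, receptor and regulator genes of the EGF receptor family 6 rose and 3 fell (median 0.29). Among the ligands, Tgfa went from 49.2 and 54.0 to 136 and 178 CPM (1.61 ± 0.15, adjusted p = 0.000517), Hbegf from 6.90 and 6.71 to 60.3 and 149 CPM (3.94 ± 0.53, adjusted p = 0.00144), and Areg, Epgn and the neuregulin gene Nrg1 rose by 2.53 ± 0.47, 2.61 ± 0.42 and 2.46 ± 0.33. Each of these was higher in both DMBA/TPA libraries than in all 4 acetone libraries. Btc, betacellulin, went the other way, from 51.6 and 51.4 to 12.7 and 11.4 CPM (-2.10 ± 0.18, adjusted p = 0.000413), but the other acetone group was at 15.0 and 18.8 CPM and the difference from it was not called (-0.49, adjusted p = 0.0891). Egfr, the receptor, was at 339 and 333 CPM in acetone and 276 and 243 CPM in DMBA/TPA (-0.37 ± 0.11, adjusted p = 0.0288), a call lost against the other acetone group, with the 4 libraries fitted alone and without each of 5 libraries. Of 16 inhibitors and readouts of ERK signalling 8 rose and 3 fell. Phlda1 and Spred3 rose by 2.79 ± 0.33 and 2.41 ± 0.37, and Spry1 fell from 74.2 and 71.9 to 32.3 and 42.3 CPM (-0.97 ± 0.17, adjusted p = 0.00361) and had -0.32 without a call against the other acetone group (adjusted p = 0.203).

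Genes of protein kinase C, the direct target of TPA, and of the Ras pathway were called in shares near those over all genes (22.4% higher, 18.3% lower). Of 20 such genes 5 rose and 5 fell (median -0.04), and 1 rose and 2 fell against the other acetone group. Without acetone 1 the split was 2 and 1, without DMBA/TPA 2 it was 2 and 2, and without acetone 2 or either library of DMBA alone 2 rose. Prkcb fell from 52.1 and 42.0 to 19.3 and 19.8 CPM (-1.26 ± 0.13, adjusted p = 0.000694). Prkca rose by 0.68 ± 0.12 (adjusted p = 0.00451), but the other acetone group was at 27.4 and 30.2 CPM and gave the opposite sign without a call (-0.18, adjusted p = 0.335). Prkce was at 17.4 and 20.5 CPM in acetone and 21.6 and 24.3 CPM in DMBA/TPA and Hras at 118 and 115 CPM and 126 and 166 CPM, and neither was called (0.28 ± 0.13 and 0.32 ± 0.13, adjusted p = 0.112 and 0.0874). Whether Hras was mutated cannot be read from gene counts.

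AP-1, the dimer of Fos and Jun family proteins through which phorbol esters act on many promoters, was represented by 16 transcription factor genes, of which 8 rose, or 5 without acetone 1, and none fell. Fosl1, a Fos family member tied to skin tumour progression, went from 2.72 and 1.95 to 15.5 and 32.4 CPM (3.36 ± 0.76, adjusted p = 0.0103), a call lost without acetone 1 and without acetone 2. Junb went from 143 and 116 to 286 and 490.0 CPM (1.58 ± 0.25, adjusted p = 0.00278), and Maff rose by 1.25 ± 0.13. The AP-1 letters TGACTCA, on either strand, were then searched in promoters, taken from RefSeq (GRCm38.p6) as 250 bases before to 50 after a gene's start. A promoter was matched for 12213 of the 19450 tested genes. Of these, 4.06% held the motif, against 5.11% of the promoters of genes that rose, 9.9% of those that rose at least 8-fold and 3.89% of those that fell. In the small proline-rich list it was 8 of 13 promoters (61.5%), in the matrix protease list 5 of 16 (31.2%), and in the late cornified envelope list 0 of 20. The spinous list, in which 5 genes rose and 2 fell with a median of 0.15, held it in 3 of 8 (37.5%). A high share was therefore not limited to lists that rose. A match is a description of letters, not a site shown to be bound.

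The stretches that follow are 30 bases on either side of the match in 8 genes that rose, each read 5′ to 3′ on the strand of the gene with the AP-1 letters in capitals (TGAGTCA is TGACTCA read on the opposite strand). They show that the 4 Sprr2 copies hold it at nearly the same distance from the start, between 193 and 197 bases before it, while Mmp13, Mmp10 and Plaur hold it nearer, at 35, 63 and 69 bases, and Ivl at 116 bases.
Sprr2b promoter (GRCm38.p6 chr3:92316480-92316546, plus strand): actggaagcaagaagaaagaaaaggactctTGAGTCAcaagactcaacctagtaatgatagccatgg
Sprr2d promoter (GRCm38.p6 chr3:92338917-92338983, plus strand): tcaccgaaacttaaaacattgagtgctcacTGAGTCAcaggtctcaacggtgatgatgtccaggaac
Sprr2f promoter (GRCm38.p6 chr3:92364960-92365026, plus strand): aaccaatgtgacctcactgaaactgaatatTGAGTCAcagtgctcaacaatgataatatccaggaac
Sprr2i promoter (GRCm38.p6 chr3:92407768-92407834, plus strand): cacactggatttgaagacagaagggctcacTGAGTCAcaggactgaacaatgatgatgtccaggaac
Mmp10 promoter (GRCm38.p6 chr9:7502249-7502315, plus strand): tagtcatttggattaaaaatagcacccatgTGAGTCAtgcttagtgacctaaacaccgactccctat
Mmp13 promoter (GRCm38.p6 chr9:7272449-7272515, plus strand): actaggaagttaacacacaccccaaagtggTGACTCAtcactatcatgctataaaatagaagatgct
Plaur promoter (GRCm38.p6 chr7:24462384-24462450, plus strand): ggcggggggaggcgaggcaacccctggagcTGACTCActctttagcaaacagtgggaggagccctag
Ivl promoter (GRCm38.p6 chr3:92573815-92573881, minus strand): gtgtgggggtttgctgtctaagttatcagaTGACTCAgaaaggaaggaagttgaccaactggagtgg

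Of the 67 bases shown, Sprr2d and Sprr2i share 47 and Sprr2b and Sprr2i 25, compared position by position without gaps. The copies are thus not identical around the match that they have in common. A base gained or lost in either copy would lower the number shared, so it does not measure how far the copies differ. Sprr2a3, which rose from 1.25 and 1.13 to 148 and 369 CPM (7.76 ± 0.87, adjusted p = 0.000808), holds no AP-1 match in its window.

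**Figure D2:**
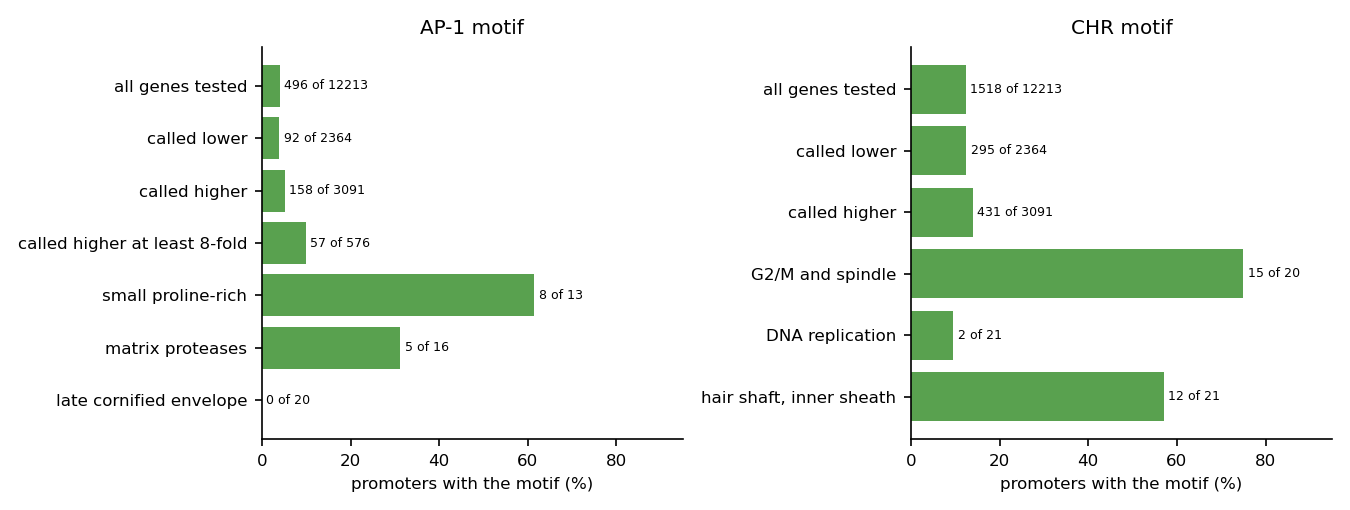
Share of RefSeq promoters (percent, 300 bases each) that hold the AP-1 letters (left) or the CHR letters TTTGAA (right) among all tested genes, called genes and gene lists, with the number of promoters beside each bar. The AP-1 bar is longest for the small proline-rich list (61.5%) and the CHR bar for the G2/M list (75.0%).

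Among cytokine genes, those of the IL-1 and IL-36 family rose more often than they fell. Of 18 IL-1 and IL-36 family genes 11 rose and 2 fell (median 1.24), and 11 rose and none fell against the other acetone group. Il1f6, which encodes IL-36 alpha, went from 0.244 and 0.165 to 14.9 and 19.1 CPM (6.38 ± 0.59, adjusted p = 0.000456), Il1f9, IL-36 gamma, from 22.8 and 15.3 to 94.7 and 112 CPM and Il1f8, IL-36 beta, from 4.04 and 2.58 to 16.6 and 13.98 CPM. Il1a rose by 1.85 ± 0.24 (adjusted p = 0.00131). Il1b, at no more than 4.31 CPM in any library, rose by 2.65 ± 0.60, a call lost without acetone 1, acetone 2 or DMBA/TPA 2. Of 19 tested genes of the IL-20 family, its receptors and other epithelial cytokines 8 rose and 4 fell (median -0.02), with 5 rising and 2 falling without acetone 1 and 5 rising without acetone 2. Il24, a ligand of the IL-20 receptors, had 1 count in acetone and 9.32 and 18.2 CPM in DMBA/TPA, a ratio of 896 [95% interval 160.4 to 35460], and Il19, a ligand of the same receptors, had none in acetone and 10.5 and 17.0 CPM, at least 298-fold higher. Il4ra, the receptor chain shared by IL-4 and IL-13, went from 62.1 and 67.8 to 215 and 354 CPM (2.13 ± 0.25, adjusted p = 0.000885). Tnf was at 6.94 and 4.32 CPM in acetone and 3.15 and 3.52 CPM in DMBA/TPA and was not called (-0.75 ± 0.34, adjusted p = 0.107). Of 16 chemokine genes 9 rose and 2 fell against the own acetone group, and 5 rose and 3 fell against the other. The summed level of the chemokine list did not rise, at 253 and 270 CPM in acetone 1 and 2 and 251 and 220 CPM in DMBA/TPA 1 and 2. Ccl8, an attractant of monocytes and T cells, had 1 count in acetone and 9.68 and 24.7 CPM in DMBA/TPA, a ratio of 1120 [95% interval 200.5 to 44290]. Without acetone 2 the number of IL-1 and IL-36 genes raised was 6 and of chemokine genes 4, and without acetone 1 it was 7 for the former.

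Alarmin and protease inhibitor genes rose more often than they fell. Of 23 alarmin, antimicrobial and chitinase-like genes 16 rose and none fell (median 2.84). S100a8 and S100a9, the subunits of calprotectin, went from 1.40 and 2.03 to 58.8 and 92.8 CPM and from 0.0697 and 0.330 to 71.9 and 133 CPM (5.45 ± 0.53 and 8.88 ± 0.53, adjusted p = 0.000517 and 0.000199). Neutrophils carry both genes too. The neutrophil markers fixed for the tissue check summed to 0.174 and 0.0550 CPM in acetone 1 and 2 and 12.9 and 19.1 CPM in DMBA/TPA 1 and 2. Of these markers, Ly6g was at 0 in all 4 libraries and Cxcr2 alone was at 12.43 and 16.65 CPM in DMBA/TPA 1 and 2. The part of neutrophils in the S100a8 and S100a9 values was not tested. Slpi, a secreted inhibitor of leukocyte proteases, rose from 0.279 and 0.302 to 98.0 and 325 CPM (9.48 ± 0.73, adjusted p = 0.000322). Chil4, a chitinase-like protein, had 2 counts in acetone, none in the other acetone group and 222 and 432 CPM in DMBA/TPA, a ratio of 10650 [95% interval 2947 to 87910]. Of 20 tested serpin, stefin and cystatin genes 11 rose and 2 fell (median 1.57). The stefins, inhibitors of cysteine proteases that lie in a cluster of near copies, gave some of the steepest changes. Stfa2 had 2 counts in acetone and 61.1 and 97.1 CPM in DMBA/TPA, a ratio of 2574 [95% interval 712 to 21260], and Stfa3 went from 2.54 and 1.46 to 133 and 319 CPM. Csta1, a stefin gene with more counts in acetone, rose from 21.2 and 15.2 to 72.7 and 79.1 CPM (2.06 ± 0.17, adjusted p = 0.000342), and Serpinb6c, a serine protease inhibitor, from 0.279 and 0.357 to 16.8 and 32.3 CPM.

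Matrix protease genes and genes of the basement membrane changed in both directions. Of 22 protease and inhibitor genes 16 rose and 1 fell, and 10 rose without acetone 2. Mmp13, an interstitial collagenase, had 2 counts in acetone and 9.87 and 11.2 CPM in DMBA/TPA, a ratio of 342 [95% interval 94.3 to 2833], and Mmp10, a stromelysin, had none in acetone and 2.28 and 4.54 CPM, at least 74.1-fold higher, a call that DESeq2 did not make. Plaur, the urokinase receptor, had 3 counts in acetone and 2.83 and 7.83 CPM in DMBA/TPA, a ratio of 116 [95% interval 39.2 to 565]. Ctsd and Ctsl, lysosomal cathepsins, rose by 1.85 ± 0.18 and 1.21 ± 0.16, and Adam8, a cell-surface metalloprotease, by 2.68 ± 0.36. Of 23 genes of the basement membrane, tenascin and matrix integrins 14 rose and 5 fell (median 1.41), whereas 4 rose and 5 fell against the other acetone group (median 0.18). Lama1 (ENSMUSG00000032796, chromosome 17, 67697259 to 67822647), a laminin alpha chain, gave the largest decrease of any named gene: it was at 63.7 and 67.8 CPM in acetone, 29.9 and 34.7 CPM in the other acetone group and 1.57 and 1.84 CPM in DMBA/TPA (-5.26 ± 0.21, adjusted p = 5.45e-05). It was also called lower against the other acetone group (-4.24, adjusted p = 0.000106). Itga5, the fibronectin receptor chain, rose from 4.43 and 4.51 to 24.7 and 39.8 CPM (2.85 ± 0.26, adjusted p = 0.000449). Tnc, tenascin C, rose from 36.2 and 43.0 to 189.5 and 206 CPM (2.32 ± 0.15, adjusted p = 0.000213), yet the other acetone group was at 168 and 182 CPM and that difference was not called (0.18, adjusted p = 0.398).

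Genes of cell division rose, while the share of DNA replication genes that rose was near the 22.4% over all genes. Of 25 G2/M and spindle genes 24 rose and 1 fell (median 1.75), and against the other acetone group 21 rose and none fell (median 1.14). Of 27 replication genes 7 rose and 2 fell (median 0.17), and the split became 12 and 3 without DMBA/TPA 1, 3 and 0 without acetone 1, 3 and 1 without acetone 2, 4 and 1 without DMBA/TPA 2, and 5 and 6 under scaling by total counts. Cdc20 (ENSMUSG00000006398, chromosome 4, 118432901 to 118437352), an activator of the anaphase-promoting complex, went from 9.59 and 6.62 to 37.4 and 71.7 CPM (2.75 ± 0.34, adjusted p = 0.00113). Kif11, a spindle motor, went from 13.4 and 8.77 to 36.4 and 47.4 CPM (1.92 ± 0.22, adjusted p = 0.00081), Cdk1, the mitotic kinase, from 8.12 and 6.43 to 20.2 and 23.7 CPM (1.59 ± 0.17, adjusted p = 0.000753), and Plk1 and Aurka, kinases of the spindle poles, rose by 2.72 ± 0.39 and 2.42 ± 0.28. Foxm1, a transcription factor of G2/M genes, went from 10.6 and 7.64 to 26.3 and 33.6 CPM (1.72 ± 0.20, adjusted p = 0.000871). All of these were above every acetone library in both DMBA/TPA libraries. Mki67, a marker of cycling cells, was at 119.8 and 73.5 CPM in acetone, 127 and 124 CPM in the other acetone group and 204 and 247 CPM in DMBA/TPA (1.22 ± 0.22, adjusted p = 0.00405). The own acetone libraries differed here, with acetone 1 above acetone 2 by a median log2 ratio of 0.61 over the mitosis list. Of G1 genes, Ccnd1 rose by 1.25 ± 0.26 (adjusted p = 0.00733, lost without acetone 1), Ccne1 by 2.17 ± 0.35, and Ccnd2 fell from 692 and 656 to 381 and 237 CPM (-1.12 ± 0.20, adjusted p = 0.00381). Cdkn2a, the Ink4a and Arf locus, had 3 counts in acetone and 3.54 and 5.41 CPM in DMBA/TPA, a ratio of 97.05 [95% interval 32.8 to 474]. Trp53 was not called (0.25 ± 0.10, adjusted p = 0.0675), and of 18 p53 targets 7 rose and 2 fell, with 4 rising without acetone 1, acetone 2 or DMBA/TPA 2. Cdkn1a, the p21 inhibitor, had 0.43 ± 0.11 (adjusted p = 0.0198), a call lost against the other acetone group and without acetone 1, acetone 2 or DMBA/TPA 2, Phlda3, a repressor of Akt, rose by 1.35 ± 0.22 and Fas, the death receptor, fell by 1.84 ± 0.26 on the log2 scale.

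The CHR letters TTTGAA, a cell cycle element near the start of many G2/M genes, were found in 15 of 20 promoters of the G2/M list (75.0%), in 2 of 21 of the replication list (9.52%) and in 12.4% of all promoters matched. The hair shaft list had them in 12 of 21 (57.1%). E2F letters (TTTCGCGC or TTTGGCGC) were in 7 of 21 replication promoters (33.3%) and in 1.41% of all. The position of the CHR letters varied among the named genes of cell division. They began 31 and 33 bases after the start in Plk1 and Aurka, and both Mki67 matches lay well before it. In 3 others, shown as examples, a match began 15 to 19 bases before the start. Cdk1 holds a further match, farther before the start, that is not marked. The letters are in capitals on the strand of the gene (TTCAAA is TTTGAA read on the opposite strand).
Cdc20 promoter (GRCm38.p6 chr4:118437326-118437391, minus strand): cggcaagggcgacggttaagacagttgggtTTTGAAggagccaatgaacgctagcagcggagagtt
Kif11 promoter (GRCm38.p6 chr19:37376333-37376398, plus strand): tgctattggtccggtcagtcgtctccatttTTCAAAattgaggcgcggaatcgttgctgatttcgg
Cdk1 promoter (GRCm38.p6 chr10:69352892-69352957, minus strand): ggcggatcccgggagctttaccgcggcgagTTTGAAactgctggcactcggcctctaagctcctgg

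Genes of glycolysis and the hypoxia response rose. Of 21 glycolysis and hypoxia genes 17 rose and none fell (median 1.53), and 18 rose and none fell against the other acetone group. Hk2, the inducible hexokinase, went from 24.8 and 26.8 to 134 and 243 CPM (2.87 ± 0.26, adjusted p = 0.000445), Ldha, lactate dehydrogenase A, from 193 and 181 to 481 and 940.3 CPM (1.93 ± 0.28, adjusted p = 0.00193), and Vegfa, the angiogenic factor, from 23.1 and 20.8 to 94.4 and 126 CPM (2.32 ± 0.20, adjusted p = 0.000412). Nuclear genes for oxidative phosphorylation rose too, 18 of 23 with a median of 0.51 and with 16 when scaled by total counts, while 6 did against the other acetone group and 12 without acetone 1 or without acetone 2. Of 12 mitochondrially encoded genes none rose and 3 fell (median -0.65), and mt-Nd2, a subunit of complex I, was at 599 and 582 CPM in acetone and 344 and 169 CPM in DMBA/TPA (-1.20 ± 0.28, adjusted p = 0.0117, lost without acetone 1). Of the 12, 10 fell without DMBA/TPA 1, none without acetone 1, 1 without acetone 2 and 2 without DMBA/TPA 2. Of 26 ribosomal protein genes 15 rose and none fell (median 0.43), with 13 under total counts, 8 without acetone 2 and 8 against the other acetone group. Aqp3 (ENSMUSG00000028435, chromosome 4, 41092722 to 41098183), the water and glycerol channel of basal keratinocytes, rose from 102 and 130.2 to 723 and 1786 CPM (3.44 ± 0.40, adjusted p = 0.000889).

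Enzymes of polyamines, eicosanoids and detoxification rose and fell. Odc1, ornithine decarboxylase, the classic marker of TPA action on skin, was at 26.8 and 41.5 CPM in acetone and 74.3 and 282 CPM in DMBA/TPA 1 and 2 (2.38 ± 0.53, adjusted p = 0.00933), a wide spread within the treated pair, and the call was lost without acetone 1. Smox, spermine oxidase, rose from 19.04 and 18.3 to 121 and 172 CPM (2.98 ± 0.30, adjusted p = 0.000606). Alox8, a lipoxygenase known to be induced by TPA in mouse skin, went from 3.17 and 2.83 to 45.9 and 43.4 CPM, with the 2 treated libraries nearly equal (3.90 ± 0.36, adjusted p = 0.000449). Pla2g4e, a phospholipase, went from 1.85 and 1.79 to 120.0 and 257 CPM (6.70 ± 0.70, adjusted p = 0.000643). Ptgs2, cyclooxygenase 2, was at 6.73 and 7.09 CPM in acetone and 7.43 and 18.96 CPM in DMBA/TPA and was not called (0.93 ± 0.40, adjusted p = 0.0924), though it was against the other acetone group (1.64, adjusted p = 0.0278). Of 20 genes of polyamine and eicosanoid metabolism 9 rose and 3 fell, and 5 rose without acetone 1. Of 24 NRF2 and oxidative stress genes 12 rose and 1 fell. Gsta4, a glutathione transferase, went from 3.07 and 3.54 to 54.0 and 196 CPM (5.23 ± 0.59, adjusted p = 0.000831), Slc7a11, the cystine importer, from 1.05 and 0.715 to 18.1 and 27.4 CPM (4.70 ± 0.44, adjusted p = 0.000456) and Hmox1, heme oxygenase, from 23.4 and 24.2 to 55.5 and 72.6 CPM. In contrast 8 of 13 genes of the aryl hydrocarbon receptor and xenobiotic list fell and 1 rose (median -0.68), and 4 fell without acetone 1 and 5 without acetone 2 or DMBA/TPA 2. Ahrr, the repressor of that receptor, went from 10.98 and 8.79 to 2.87 and 4.62 CPM (-1.40 ± 0.29, adjusted p = 0.00728), a call lost against the other acetone group and without acetone 1. Cyp1a1, the receptor's best known target, was at 13.5 and 16.6 CPM in acetone and 13.3 and 5.64 CPM in DMBA/TPA and was not called (-0.68 ± 0.39, adjusted p = 0.194).

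Genes known from papillomas and skin carcinomas were listed apart, and 15 of 22 rose and none fell (median 2.49). Their median was 0.86 against the other acetone group, where 11 rose. Pitx1, a homeobox factor known from squamous tumours, had 2 counts in acetone and 18.7 and 80.9 CPM in DMBA/TPA, a ratio of 1622 [95% interval 449 to 13400]. Igf2bp2, an RNA-binding protein, rose from 0.872 and 0.962 to 11.8 and 31.4 CPM (4.55 ± 0.46, adjusted p = 0.000614). Krt13, a keratin of internal epithelia and of advanced papillomas, was at 0.105 and 0.165 CPM in acetone and 2.56 and 42.3 CPM in DMBA/TPA 1 and 2 (7.31 ± 1.39, adjusted p = 0.00528), a call that limma voom did not make. The labels do not say whether the sampled skin carried papillomas.

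**Figure D3:**
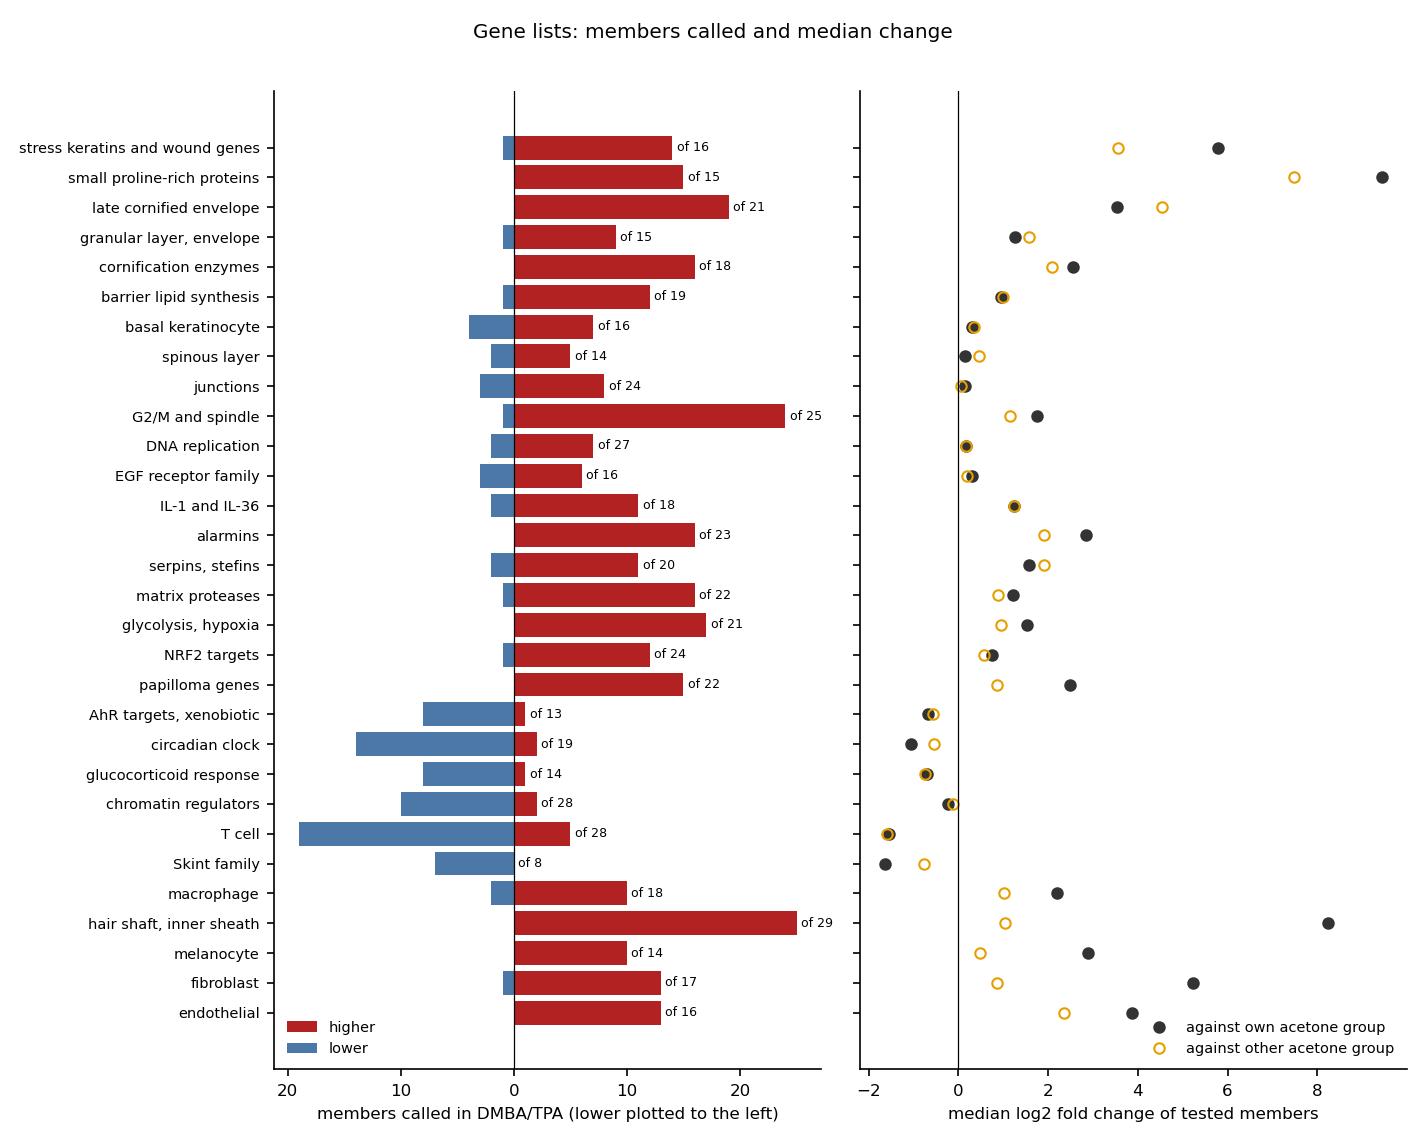
For 30 gene lists, the number of members called higher (red) and lower (blue) against the own acetone group, with the number tested beside each bar (left), and the median log2 fold change of the tested members against the own and the other acetone group (right). The small proline-rich list has a median of 9.44 and the Skint list of -1.64, and the median of the hair shaft list is 8.24 against the own and 1.04 against the other acetone group.

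Genes of the circadian clock and of glucocorticoid signalling fell in larger numbers than they rose. Of 19 clock genes 14 fell and 2 rose (median -1.06), and 10 fell and 2 rose against the other acetone group (median -0.55). Per2 (ENSMUSG00000055866, chromosome 1, 91415982 to 91459324), a repressor of the clock, went from 88.1 and 107 to 41.2 and 49.6 CPM (-1.10 ± 0.13, adjusted p = 0.000965) and Cry2, its partner, from 135 and 148 to 66.1 and 69.3 CPM (-1.06 ± 0.11, adjusted p = 0.000618). Nfil3 went the other way (1.89 ± 0.16, adjusted p = 0.000358), but the other acetone group was at 19.6 and 16.8 CPM, level with DMBA/TPA at 18.2 and 16.5 CPM. Nr1d1 likewise fell by 1.58 ± 0.31 against its own acetone group and was not called against the other (-0.23, adjusted p = 0.619). The E-box letters CACGTG, through which clock factors act, were in 5 of 16 clock promoters (31.2%) and in 9.48% of all promoters matched. The glucocorticoid list and the stress keratin list, most of whose genes rose, each held them in 3 of 10 promoters. A high share was therefore not limited to the clock list. The hour of harvest is not in the labels, and its part in the clock genes cannot be told apart from that of treatment. Of 14 glucocorticoid genes 8 fell, or 5 without acetone 1, and 1 rose. Nr3c1, the glucocorticoid receptor, went from 228 and 242 to 108 and 81.9 CPM (-1.30 ± 0.19, adjusted p = 0.00203), Nr3c2, the mineralocorticoid receptor, from 8.44 and 9.01 to 1.18 and 0.627 CPM (-3.27 ± 0.38, adjusted p = 0.000906), and Zbtb16, a target of the glucocorticoid receptor, from 165 and 204 to 70.0 and 70.5 CPM. Of 28 chromatin regulators 10 fell and 2 rose, and 3, 5 and 4 fell without acetone 1, acetone 2 and DMBA/TPA 2. Satb1, a genome organizer of epidermal progenitors, went from 119 and 102 to 30.01 and 22.4 CPM (-2.08 ± 0.18, adjusted p = 0.000429), and Tet1, a DNA demethylase, from 8.58 and 8.96 to 3.38 and 1.61 CPM.

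Sebaceous, follicle stem cell and signalling lists were split. Of 22 sebaceous and lipid synthesis genes 2 rose and 3 fell, with 7 falling without DMBA/TPA 1 and 1 without any 1 of the other 3 libraries compared. Scd3, a fatty acid desaturase of sebaceous glands, was at 31.0 and 35.3 CPM in acetone, 2.67 and 2.28 CPM in the other acetone group and 2.36 and 1.72 CPM in DMBA/TPA. It was called against the own group (-4.02 ± 0.33, adjusted p = 0.000359) and not against the other (-0.28, adjusted p = 0.578). The sebocyte markers fixed for the tissue check summed to 66.6 and 71.1 CPM in acetone 1 and 2 and 27.2 and 11.7 CPM in DMBA/TPA 1 and 2. Fabp5, the epidermal fatty acid carrier, rose against both, from 89.8 and 91.0 and, in the other group, 81.8 and 175 CPM to 711 and 1421 CPM (3.56 ± 0.47 and 3.05, adjusted p = 0.00139 and 0.00548). Of 23 follicle stem cell genes 4 rose and 7 fell, against 2 and 4 without acetone 1 and 4 falling without acetone 2. Fgf18, a growth factor of resting follicles, went from 13.3 and 22.1 to 2.52 and 2.19 CPM (-2.91 ± 0.52, adjusted p = 0.00407), and Krt24, a bulge keratin, from 10.6 and 21.2 to 3.07 and 1.57 CPM (-2.78 ± 0.58, adjusted p = 0.00757). Shh, the ligand of growing follicles, rose from 0.105 and 0.962 to 4.25 and 4.11 CPM (2.90 ± 0.68, adjusted p = 0.0115). Of 25 Wnt pathway genes 6 rose and 7 fell, but 3 and 2 without acetone 1, 3 and 3 without acetone 2, 2 falling without DMBA/TPA 2 and 3 rising without either library of DMBA alone. Wnt5a, a non-canonical ligand, went from 31.9 and 31.2 to 67.1 and 134 CPM (1.67 ± 0.31, adjusted p = 0.00481) and Axin2, a canonical target, from 156 and 153 to 94.0 and 76.8 CPM (-0.86 ± 0.13, adjusted p = 0.00248). Of 17 Notch pathway genes 5 rose, or 2 to 3 when acetone 1, acetone 2, DMBA/TPA 2 or either library of DMBA alone was left out, and 2 fell. Jag2, a ligand, went from 534 and 530.5 to 375 and 373 CPM (-0.51 ± 0.10, adjusted p = 0.00586).

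Changes in abundant genes moved a share of the counts. The 12 called genes with the largest rise in mean CPM held 1.585% and 1.539% of gene counts in acetone 1 and 2 and 4.889% and 7.969% in DMBA/TPA 1 and 2, and the 12 with the largest fall went from 3.808% and 3.628% to 2.058% and 1.431%. The former include the keratin genes Krt14, Krt16, Krt6a, Krt6b and Krt1, and also Calm4, a calcium-binding protein of differentiating epidermis, from 564 and 477 to 1553 and 2531 CPM (1.97 ± 0.27, adjusted p = 0.00153). Neat1, a nuclear noncoding RNA that builds paraspeckles, rose from 4078 and 3494 to 5845 and 7930 CPM (0.86 ± 0.19, adjusted p = 0.01), a call lost without acetone 2. The latter include the keratin genes Krt77 and Krt15, and also Itpr3, a calcium release channel, from 1859 and 1770 to 984 and 886 CPM (-0.96 ± 0.13, adjusted p = 0.00153), Fcgbp, a mucin-like protein, from 2380 and 2107 to 1208 and 1227 CPM (-0.88 ± 0.12, adjusted p = 0.0018), and Anxa8, an annexin, from 1701 and 1532 to 845 and 689.8 CPM (-1.07 ± 0.14, adjusted p = 0.0012). Of 23 ion channel and transporter genes 7 rose and 7 fell, and 1 fell without acetone 1 and 2 without acetone 2 or DMBA/TPA 2. Atp2a2, the calcium pump of the endoplasmic reticulum, rose from 274 and 304 to 576 and 922 CPM (1.38 ± 0.20, adjusted p = 0.00204).

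Several of the steepest decreases lay outside these groups. Tgm7, a transglutaminase, went from 43.0 and 29.2 to 1.298 and 1.18 CPM (-4.86 ± 0.38, adjusted p = 0.000322), Dab1, a reelin signalling adaptor, from 29.6 and 22.2 to 1.298 and 0.548 CPM (-4.80 ± 0.42, adjusted p = 0.000407), and Cdh4, a cadherin, from 51.5 and 43.1 to 3.19 and 3.41 CPM (-3.84 ± 0.21, adjusted p = 0.000166). The potassium channel gene Kcnma1 went from 20.8 and 21.2 to 1.14 and 0.901 CPM, the cation channel gene Trpm3 from 37.2 and 40.3 to 2.71 and 1.29 CPM and the neuropeptide Y receptor gene Npy1r from 24.1 and 20.03 to 1.73 and 1.06 CPM. All 6 were also called lower against the other acetone group, with log2 fold changes of -4.04, -3.29, -2.75, -4.09, -2.03 and -2.57. Rasgrf1, a Ras exchange factor, fell by 4.06 ± 0.59 (adjusted p = 0.00198), and had -1.40 without a call against the other acetone group (adjusted p = 0.14). Increases outside the lists included Stab1, a scavenger receptor, from 0.488 and 0.715 to 77.0 and 236 CPM (7.99 ± 0.65, adjusted p = 0.000355), and Sh2d5, an adaptor, from 0.453 and 0.302 to 32.1 and 110.1 CPM (7.57 ± 0.79, adjusted p = 0.000657). Stab1 overlaps Nt5dc2 on the opposite strand and Sh2d5 overlaps Kif17 on the same strand, so their reads are hard to assign.

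T cell genes fell, and Skint genes fell against the own acetone group. Mouse epidermis holds dendritic T cells that carry a gamma delta receptor and whose selection depends on the Skint family. In bulk epidermis, fewer such cells and less RNA per cell cannot be told apart. Of 28 T cell genes 19 fell and 5 rose (median -1.55), with 17 and 3 against the other acetone group (median -1.59), and their summed level went from 329 and 322 to 125 and 121 CPM. Cd3e (ENSMUSG00000032093, chromosome 9, 44998740 to 45009627), a subunit of the T cell receptor complex, was at 34.2 and 33.9 CPM in acetone, 23.3 and 33.2 CPM in the other acetone group and 4.96 and 4.78 CPM in DMBA/TPA (-2.81 ± 0.18, adjusted p = 0.000213). Cd3g, another subunit, went from 20.6 and 19.2 to 2.83 and 2.66 CPM (-2.85 ± 0.19, adjusted p = 0.000213). Prf1, the pore-forming protein of killer cells, went from 15.1 and 15.8 to 0.511 and 0.470 CPM (-4.96 ± 0.23, adjusted p = 7.53e-05). In all 3 genes the treated pair agreed closely and lay below every other library of the study. Among the 5 that rose (3 without acetone 1 and 2 without acetone 2), Cd8a, a marker of conventional killer T cells, had 0.0697 and 0.0550 CPM in acetone and 1.57 and 3.56 CPM in DMBA/TPA (5.29 ± 0.63, adjusted p = 0.000975). Of 8 Skint genes 7 fell and none rose (median -1.64), but 2 fell against the other acetone group (median -0.76). Skint10 was at 156 and 132 CPM in acetone, 57.8 and 59.2 CPM in the other acetone group and 38.6 and 15.0 CPM in DMBA/TPA (-2.42 ± 0.37, adjusted p = 0.0024; -1.12, adjusted p = 0.0601 against the other).

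Genes of other immune cells differed by list. Langerhans cell and MHC class II genes were called in shares near those over all genes (22.4% higher, 18.3% lower). Of 20 Langerhans cell and MHC class II genes 5 rose and 4 fell (median -0.06), with 1 falling without acetone 1 and 2 without acetone 2 or DMBA/TPA 1. Cd207, the Langerhans cell lectin, was at 31.8 and 22.4 CPM in acetone and 22.8 and 23.2 CPM in DMBA/TPA, overlapping and not called (-0.23 ± 0.19, adjusted p = 0.343). Il34, the keratinocyte cytokine that maintains Langerhans cells, fell from 124 and 107 to 45.4 and 41.5 CPM (-1.41 ± 0.19, adjusted p = 0.00144). Of 18 macrophage genes 10 rose and 2 fell (median 2.19), and 7 were higher and 1 lower against the other acetone group (median 1.02). Their summed level hardly moved, from 668 and 596 CPM in acetone 1 and 2 to 674 and 617 CPM in DMBA/TPA 1 and 2. Adgre1, the F4/80 antigen, which Langerhans cells also carry, fell from 14.4 and 11.2 to 1.495 and 2.04 CPM (-2.85 ± 0.23, adjusted p = 0.000347), while Cd14, a lipopolysaccharide co-receptor, rose from 0.523 and 0.550 to 4.25 and 6.82 CPM (3.35 ± 0.40, adjusted p = 0.000963), and C1qb, a complement chain, had 1 count in acetone and 2.12 and 4.39 CPM in DMBA/TPA, a ratio of 212 [95% interval 37.5 to 8423]. Of 9 tested mast cell and basophil genes 5 rose and 1 fell (median 4.54, or 3.58 if the 4 genes with no count in one of the groups are placed at their bound), while 2 rose and none fell against the other acetone group and 3 rose and none fell without acetone 1. For neutrophils 3 of 13 listed genes passed the filter and the marker Ly6g had no count in any of the 4 libraries. Of these 3, 2 rose and 1 fell, and 1 rose and none fell against the other acetone group. The calls of Csf3r (higher) and Il1r2 (lower) were lost against that group. Cxcr2, a chemokine receptor of neutrophils, went from 0.174 and 0.0550 to 12.4 and 16.6 CPM (7.01 ± 0.60, adjusted p = 0.000403).

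Genes of hair, pigment, dermis and vessels rose against the own acetone group, and much of this was not seen against the other. Of 29 hair shaft and inner root sheath genes 25 rose and none fell (median 8.24, or 7.67 if the 5 genes with no acetone count are placed at their lower bound), whereas 1 rose against the other acetone group. Without acetone 1 the number that rose was 16, and limma voom called 5. Their summed level was 62.5 and 77.8 CPM in acetone, 396 and 1495 CPM in the other acetone group and 3619 and 532 CPM in DMBA/TPA 1 and 2. Krt25, an inner root sheath keratin, was at 0.0349 and 0.495, 15.4 and 70.9 and 278 and 40.0 CPM in the same order. Of 14 melanocyte genes 10 rose, or 6 without acetone 1, and none fell, and 1 rose against the other acetone group. Dct, a melanin synthesis enzyme, was at 8.16 and 10.6, 17.6 and 26.1 and 35.2 and 28.7 CPM. Of 17 fibroblast genes 13 rose and 1 fell, against 4 and 1 with the other acetone group. Col1a1 (ENSMUSG00000001506, chromosome 11, 94936224 to 94953042), a fibrillar collagen, was at 9.94 and 17.9 CPM in acetone, 395 and 210.2 CPM in the other acetone group and 623 and 1993 CPM in DMBA/TPA (6.55 ± 0.70, adjusted p = 0.000713; 2.11, adjusted p = 0.0358 against the other, and not called with the 4 acetone libraries together). Col3a1, its neighbour in fibres, rose by 8.14 ± 0.71 against its own acetone group and was not called against the other (0.48, adjusted p = 0.503), which was at 355 and 143 CPM. All 6 fibroblast markers fixed for checking dermal carry-over, Col1a1, Col1a2, Col3a1, Dcn, Lum and Pdgfra, were detected in DMBA/TPA, summing to 17.7 and 33.1 CPM in acetone 1 and 2 and 1131 and 3222 CPM in DMBA/TPA 1 and 2. Most of these sums came from the collagen genes. Dcn was not called (adjusted p = 0.0519). Dcn and Lum were higher in DMBA/TPA 1, at 6.37 and 1.37 and at 3.74 and 1.84 CPM in DMBA/TPA 1 and 2, while the other 4 markers were higher in DMBA/TPA 2.

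**Figure D4:**
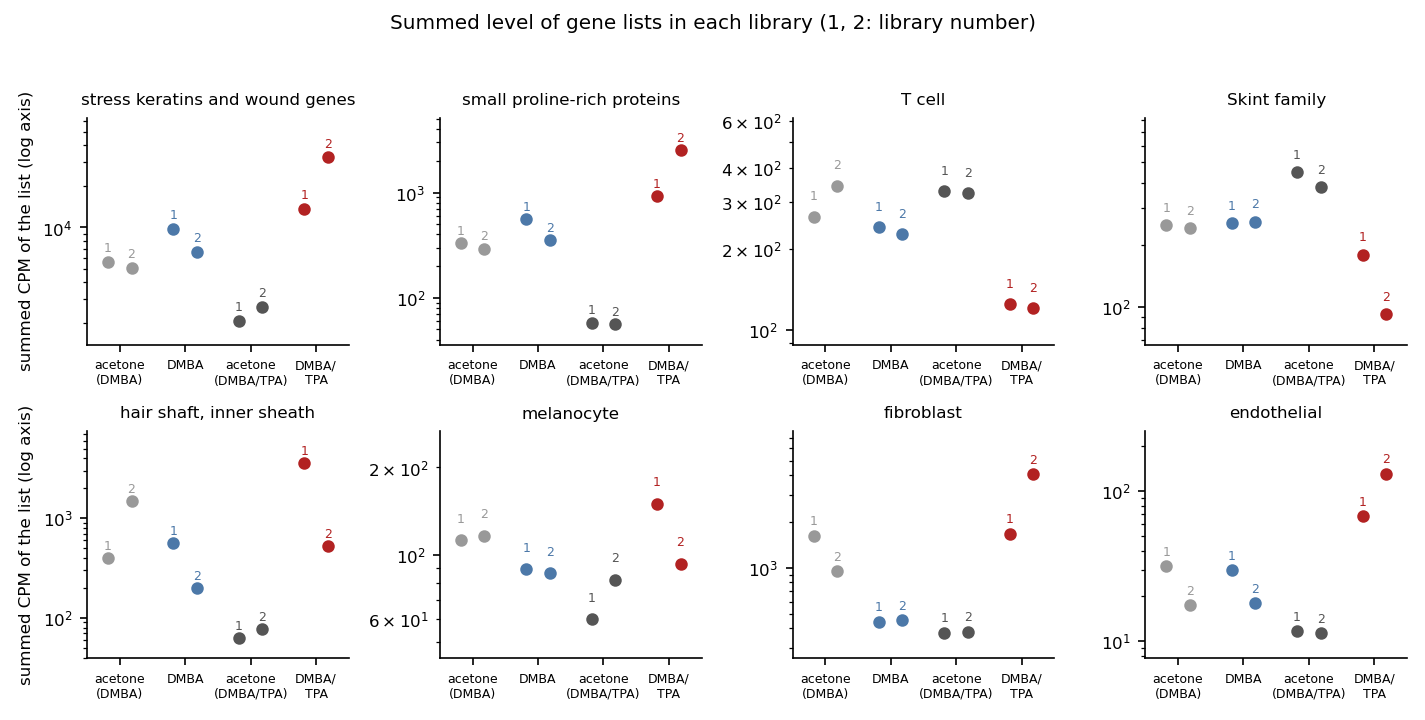
Summed level, in CPM on log axes, of 8 gene lists in each of the 8 libraries, with the library number beside each point. The stress keratin list reaches 13710 and 32540 CPM in DMBA/TPA 1 and 2, the T cell list lies lowest there (125 and 121 CPM), and the hair shaft list is at 3619 and 532 CPM in DMBA/TPA, within or above the range of the other acetone group (396 and 1495 CPM).

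Endothelial genes rose against either acetone group. Of 16, 13 rose and none fell against the own acetone group (median 3.86), and 10 rose and none fell against the other (median 2.36), with summed levels of 11.6 and 11.3, 31.5 and 17.4 and 68.2 and 131 CPM in acetone, the other acetone group and DMBA/TPA. Cdh5, the endothelial cadherin, had no count in the own acetone libraries, 1.91 and 0.570 CPM in the other acetone group and 4.17 and 8.73 CPM in DMBA/TPA, at least 140.0-fold higher than the own acetone group at the floor of 3 counts, a call lost with the 4 acetone libraries together. Flt1, a VEGF receptor, went from 3.35 and 2.39 to 25.3 and 30.3 CPM (3.28 ± 0.37, adjusted p = 0.000831; 2.97, adjusted p = 0.00251 against the other). Fabp4, a fatty acid carrier of capillary endothelium and fat cells, had 2 counts in acetone and 46.3 and 231 CPM in DMBA/TPA, a ratio of 4515 [95% interval 1249 to 37290] and a call that limma voom did not make. Of the fat cell markers, Adipoq and Plin1 had no count in DMBA/TPA. Cfd, the remaining marker, had 0 and 3 counts in DMBA/TPA 1 and 2, none in acetone and no call. The cell source of Fabp4 was not tested. The fibroblast and endothelial lists were higher in DMBA/TPA 2, as the stress keratin list was, and their part in other results was not tested.

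The 2 DMBA/TPA libraries differed from each other by gene group. Among 15498 genes averaging 1 CPM or more, 5.98% differed by 2-fold or more between them, against 2.36% between the 2 acetone libraries. DMBA/TPA 2 was the higher by 2-fold or more in 13 of 14 small proline-rich genes, 9 of 16 stress keratin genes, 9 of 18 papilloma genes and 9 of 11 endothelial genes. DMBA/TPA 1 was the higher by 2-fold or more in 26 of 29 hair shaft genes and 4 of 8 Skint genes. The median log2 ratio of DMBA/TPA 1 over 2 was -0.02 for T cell genes and -0.05 for the granular layer list. It was 0.12 for late cornified envelope genes, of which 6 of 21 were at least 2-fold higher in DMBA/TPA 2 and 1 in DMBA/TPA 1. Tchh, trichohyalin of the inner root sheath, was at 1315 and 153 CPM in DMBA/TPA 1 and 2, and Gsta4 at 54.0 and 196 CPM. Each library stands alone in this contrast, so no test was made.

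**Figure D5:**
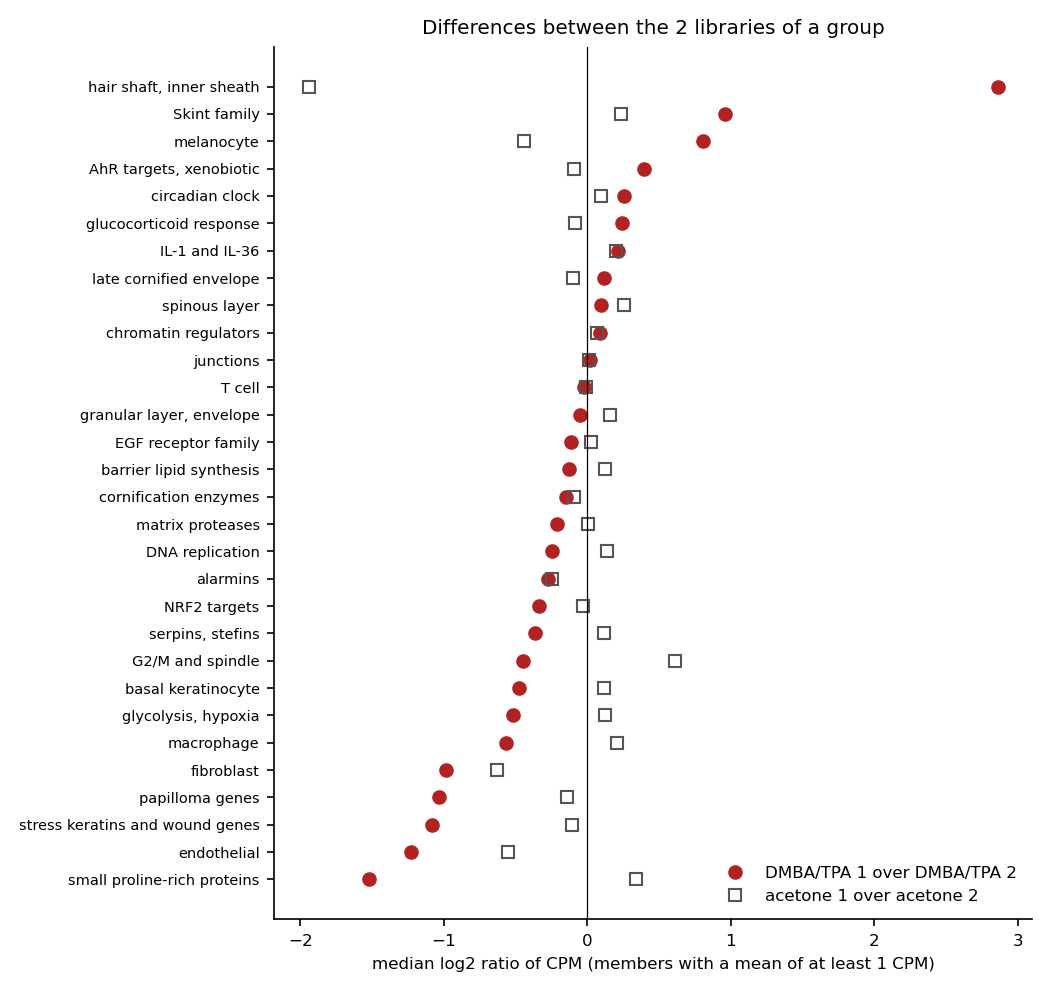
Median log2 ratio of library 1 over library 2 for the DMBA/TPA pair (filled circles) and the acetone pair (open squares), over the members of 30 gene lists that averaged 1 CPM or more. The DMBA/TPA circles run from -1.52 for small proline-rich genes to 2.86 for hair shaft genes, whose acetone square lies at -1.94.

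The DMBA/TPA response was also set against that to DMBA alone on day 10. The difference of the 2 responses, each against its own acetone group, was called positive for 8.7% and negative for 3.95% of genes by edgeR. The 2 regimens differ in agent and in day, and the labels allow no separation of the 2. Any gap between the 2 acetone groups also enters the difference of responses. For Krt6b the own acetone group differed from the other by -3.41 on the log2 scale (adjusted p = 0.0334). Krt6b, Sprr1b and Klk13 had differences of 11.34, 8.12 and 8.85 (adjusted p = 0.00246, 0.00589 and 0.00233). The Cd3e difference was -2.20 (adjusted p = 0.00373) and that of Lama1 -5.77 (adjusted p = 0.00032). The interferon list went the other way, with 11 of 23 genes called negative and none positive. Of these 23, 8 rose (4 without acetone 2, 5 without DMBA/TPA 2) and 2 fell after DMBA/TPA (median 0.78), against 9 and 0 after DMBA alone (median 1.704), where 0.19% of all genes were called higher and 0.0771% lower. Against the other acetone group 7 of the 23 were higher in DMBA/TPA and none lower. Usp18, a regulator of interferon signalling, was at 13.9 and 15.0 CPM in acetone and 5.23 and 4.27 CPM in DMBA/TPA (-1.61 ± 0.26, adjusted p = 0.00298), with a difference of responses of -2.55 (adjusted p = 0.00697). The Usp18 fall was not called against the other acetone group or with all 4 acetone libraries as control. Mx1 and Oasl1, antiviral effectors, rose by 2.25 ± 0.44 and, from 1 count in acetone, by a ratio of 308 [95% interval 54.7 to 12210]. Egln3, an oxygen-sensing hydroxylase, rose by 1.65 ± 0.14 and its difference of responses was -0.01, with no call (adjusted p = 0.979).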

How the data were processed

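The deposited files hold whole-number counts of reads per gene, 1 file per library, as made by the authors. The submitters' processing notes name cutadapt, FastQC, Bowtie2, TopHat2 and the mouse build mm10. How reads were counted (tool, annotation, strand) is not given in the sources used here, so reads of overlapping or antisense genes may be assigned to either (among named genes Junb with Prdx2, Fosl1 with Ccdc85b, Cdc20 with Elovl1, Degs2 with Evl, Ccnd1, Nr1d1 with Thra, Phlda1, Adam8, Il1b and Wnt5a). The 5 summary rows of each file were dropped, leaving 35.2% to 43.3% of all entries as gene counts, with 26300400 to 36002886 counts per library. Of the 55487 gene IDs 99.5% matched GENCODE M21 (GRCm38), which gave symbols and positions.

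Genes with at least 10 counts in enough libraries (edgeR's expression filter, total of at least 15) were kept, 19450 in all. Counts were scaled by TMM and tested with edgeR 4.0.16 (R 4.3.3), by a quasi-likelihood test with 1 model of the 4 groups over all 8 libraries and Benjamini-Hochberg adjustment (biological coefficient of variation 0.165, 4 residual and 4.23 prior degrees of freedom). The 2 libraries of each pair differed by more than sampling noise. The same procedure was tested on simulated counts for 19099 genes of this comparison. It recovered 55 of the 99 genes given a 2-fold and 82 of the 99 given a 4-fold change, with 5 of 18901 unchanged genes called. Few genes were changed there, while 40.7% of tested genes were called in the data, and whether these rates carry over was not tested. Depth limits genes of few counts, and with counts of 3 or fewer in a group a ratio of counts is given with an exact 95% interval, or, at 0 counts, a lower bound against a floor of 3 counts over the group. Intervals and floors cover counting error only, since reads carry no molecular identifiers.

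Named genes follow a rule with 5 parts: the 12 called genes per direction with the largest fold change and at least 10 counts in each library of the lower group, the 12 per direction with the largest difference of mean CPM, up to 3 called members per list by adjusted p and 3 by fold change, a fixed set of well known genes, and the 8 genes per direction that differ most between the DMBA/TPA libraries (mean of at least 20 CPM). The comparison, the lists and the fixed genes were chosen with earlier results of these data known. Alternatives were limma 3.58.1 (voom), DESeq2 1.42.0, other scalings and filters, other acetone libraries, a replicate block and each library left out.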

Additional observations from a re-analysis of the deposited data

How the results depend on the processing

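Of 7917 genes called (4356 higher, 3561 lower), a fold of at least 2 left 3860 (2352 and 1508), the other acetone group in place of the own gave 3766 (2190 and 1576) and all 4 acetone libraries together 4632 (2668 and 1964). Leaving out each library in turn gave 3704 to 8901 genes (2267 to 4876 higher and 1437 to 4025 lower). No filter, other scalings, the 4 libraries alone, limma voom and DESeq2 stayed within 1.5 times of the count, and the causes were not tested. The differences between replicates 1 and 2 were hardly correlated between the compared groups (-0.0319). With 1 difference per group this cannot show whether samples were handled in pairs, and a replicate block gave 7607 calls. Signs turned for Prkca (-0.18), Nfil3 (-0.07017), Cma1 (-1.47), Krt84 (-1.16), Krtap6-1 (-0.88), Krt72 (-0.0008065), Oca2 (-1.18) and Krt17 (-0.29) against the other acetone group, none of them called there, and for Cma1 (-0.49), Krt84 (-0.20) and Oca2 (-0.19) against all 4 acetone libraries. Genes of few counts in acetone are the ones depth limits most.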
